A study of Mus musculus with 4 samples.

Results

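The genes described here are 41 genes that build or mark the dermis: dermal collagens, adhesive glycoproteins, proteoglycans, elastic fibre proteins, the enzymes that crosslink or cut the matrix, and markers of fibroblasts. They were chosen by gene symbol, with each gene read by its brightest probe set among those with a single annotated symbol. Of the 41 genes, 39 were measured in this way, out of 19938 genes with such a probe set. Fbn1 had no listed probe set and Loxl2 only one that is shared with another symbol, so neither was analysed here. All 39 measured genes passed the filter on dim genes, at a log2 level of 7.32, and were part of the test over 14953 genes.

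Skin was isolated from mouse embryos at E16.5, and total RNA was hybridised to 4 Affymetrix arrays, 2 per group, each with RNA of 2 mice. Control embryos carried TRE-Ovol2-Flag alone or were wild type, with the strain label CB6F1; Ovol2 BT embryos carried TRE-Ovol2-Flag together with K5-tTA, with the strain label FVB/N. As labelled, genotype and strain cannot be told apart. The labels also speak of littermates sharing cages, which is at odds with separate strains for the groups, and which of these statements holds was not settled here. In the samples analysed here, no array held K5-tTA without the Ovol2 transgene. The keratin 5 promoter drives the tTA activator in basal keratinocytes, so the transgene is directed at the epidermis and not at the fibroblasts described here. The labels call the arrays biological replicates, so p-values set a difference against the spread between such pairs of embryos. That spread was estimated in part from other genes.

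The dermis is made by fibroblasts, which secrete procollagens that assemble into fibrils of type I, III and V collagen. Small leucine-rich proteoglycans bind these fibrils and set their spacing, microfibrils and elastin form the elastic fibres, lysyl oxidases crosslink both, and metalloproteinases and their inhibitors govern turnover. In the embryo, fibroblasts of the upper dermis carry Dpp4 and those of the lower dermis Dlk1, while Pdgfra and Prrx1 mark dermal mesenchyme broadly. Epidermis and dermis signal to each other during this period, so the comparison asks whether dermal transcripts differ when Ovol2, a zinc finger repressor of epithelial cells, is raised in the layer above.

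Values are log2(intensity + 16), where intensity is the probe set summary deposited by the authors, and a difference is Ovol2 BT minus control on this scale. Ovol2 read 7.59 and 8.29 in control skin versus 12.93 and 12.96 in Ovol2 BT skin, so its level matched the genotype labels. All arrays are labelled female, but the Y-linked genes Eif2s3y, Kdm5d and Uty read between 9.19 and 10.4 on both replicate 1 arrays and between 4.24 and 6.17 on both replicate 2 arrays. Each genotype thus holds 1 array with this signal and 1 without. Ovol2 BT replicate 2 stood apart from the rest: its correlation across genes with Ovol2 BT replicate 1 was 0.930 (Pearson's r), while the control pair reached 0.983, as a description across genes, which are no independent replicates. Signals of both compartments were bright, with Krt5 at 12.88 to 13.80 and Col1a1 at 13.50 to 13.58. Skeletal muscle signal was bright too, with Actc1 at 13.53 to 13.88.

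Promoter sequences are shown for 3 genes, 1 for each set of letters searched, among them the core reported for Ovo proteins. RefSeq promoters of GRCm38.p6 were found for 27 of the 41 genes (32 promoters), and the 250 bases before each start were searched on both strands for CCGTTA, the core reported for Ovo proteins, for CCAAT and for TATAAA. The Ovo letters were present in 2 of the 32 promoters, both of Tnc and both covering the same stretch of DNA, against 2.18% of all 32851 promoters in the table. CCAAT was present in 7 of the 32 (33.8% of all promoters) and TATAAA in 7 (12.4% of all promoters). A match is a description of letters and not a binding site; the Tnc stretch also holds TATAAA, left in lower case. Capitals mark the letters searched for: CCGTTA in Tnc, whose probe set was lower on 1 Ovol2 BT array and higher on the other; TATAAA in Postn, the gene with the most negative difference; and CCAAT in Col1a2, a chain of the most abundant dermal collagen. The stretches lie at chr4:64047016-64047265 (minus strand), chr3:54360857-54361106 (plus strand) and chr6:4505368-4505617 (plus strand) of GRCm38.p6, and each ends at the base before the start.
Tnc: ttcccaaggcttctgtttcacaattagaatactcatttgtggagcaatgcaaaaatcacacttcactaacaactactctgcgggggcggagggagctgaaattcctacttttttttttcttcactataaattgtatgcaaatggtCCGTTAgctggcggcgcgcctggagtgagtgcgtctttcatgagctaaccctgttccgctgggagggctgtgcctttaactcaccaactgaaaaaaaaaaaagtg
Postn: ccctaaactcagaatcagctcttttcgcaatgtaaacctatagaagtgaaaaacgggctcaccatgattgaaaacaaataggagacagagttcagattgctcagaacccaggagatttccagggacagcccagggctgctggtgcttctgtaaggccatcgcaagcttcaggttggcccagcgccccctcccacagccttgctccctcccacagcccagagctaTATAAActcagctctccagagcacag
Col1a2: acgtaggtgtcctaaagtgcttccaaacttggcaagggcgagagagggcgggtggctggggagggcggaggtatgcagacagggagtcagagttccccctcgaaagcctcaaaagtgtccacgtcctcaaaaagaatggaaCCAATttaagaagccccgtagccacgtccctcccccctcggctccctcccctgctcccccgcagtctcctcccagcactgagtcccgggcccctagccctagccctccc

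Across the dermal matrix, no gene passed the test between genotypes. In limma's test over all genes, 0 of the 39 genes were called at an adjusted p under 0.05, where 0.0268% of all genes tested were called (4 of 14953), and the smallest adjusted p among the 39 was 0.906. At an unadjusted p under 0.05 there were also 0 of 39, against 4.23% of all genes; a p that misses the threshold does not show that levels were equal. The differences ran from -0.37 for Postn to 0.40 for Tnxb, with 26 positive and 13 negative. Over all genes tested, 8140 were positive and 6813 negative, the background for the counts of signs by role and list below. Genes share the same 4 arrays, so such counts are a description. Their median was 0.06, and that of all genes tested was 0.03. The median size of a difference, without its sign, was 0.13 for the 39 genes and 0.16 for all genes.

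The intervals show how closely these differences were pinned down. The 95% interval of the difference lay within -1 and 1, less than a 2-fold change either way, for 33 of the 39 genes, and within -0.5 and 0.5 for 20. The intervals of Tnxb, Postn, Fmod, Lox, Mmp9 and Dpp4 reached past a 2-fold change on at least 1 side. Most of the genes were bright, with 36 of 39 above the median level of the genes tested. The brightest genes had the smallest errors on these arrays: the median standard error (SE) was 0.07 for genes over a level of 13. It was largest, at 0.22, for those between 9 and 10, and was 0.16 for those under 8. Single bright genes departed from this, such as Postn, at a level of 12.76 with an SE of 0.29. Whether the arrays compress the differences of bright genes was not tested. These are bulk samples, so fewer cells of a type and less RNA per cell cannot be told apart.

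**Figure D1:**
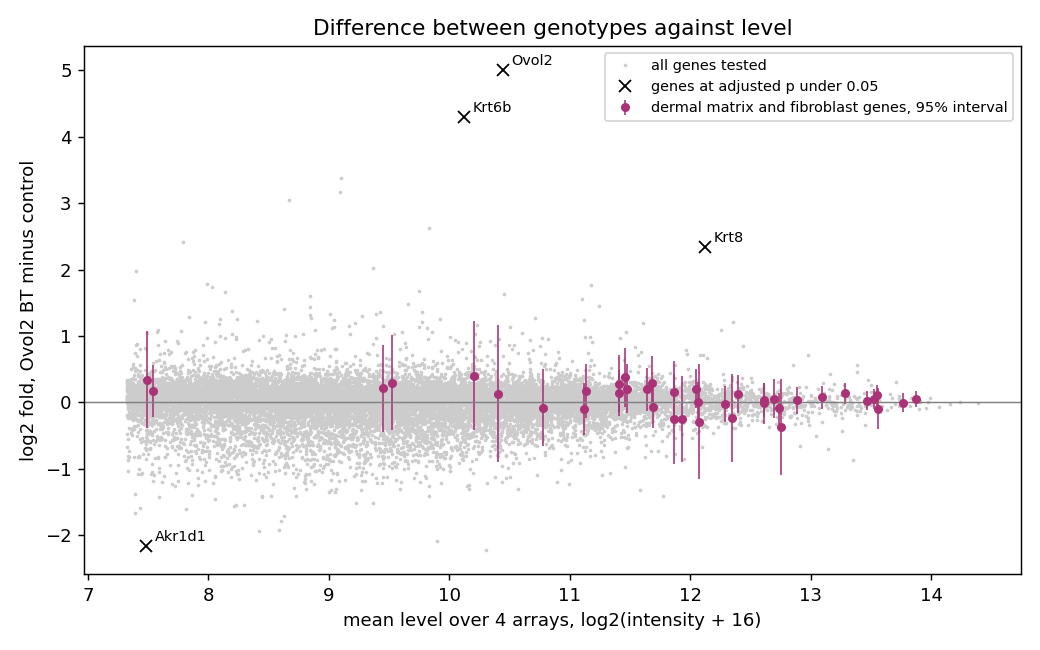
Each point is a gene, placed by its mean level over the 4 arrays (horizontal axis, log2(intensity + 16)) and by its difference between genotypes (vertical axis, log2, Ovol2 BT minus control); purple points are the 39 dermal genes with 95% intervals, grey points all 14953 genes tested, and crosses the 4 genes called (Ovol2, Krt6b, Krt8 and Akr1d1). The dermal genes lie between -0.37 and 0.40, and their narrowest intervals are found among the brightest genes.

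Of the fibrillar collagens, which carry the tensile strength of the dermis, the type I and type III chains differed by 0.05 or less, and the type V chains by more. Col1a1, the alpha 1 chain of type I collagen, read 13.50 and 13.50 in control skin versus 13.52 and 13.58 in Ovol2 BT skin, a difference of 0.05 (95% interval -0.09 to 0.19). Col1a2, its partner chain, read 13.48 and 13.43 against 13.46 and 13.48, a difference of 0.02 (interval -0.12 to 0.17). Both Ovol2 BT arrays lay just above the controls for Col1a1, and the groups overlapped for Col1a2. Col3a1, the type III chain plentiful in fetal skin, differed by 0.03 (interval -0.17 to 0.23). The type V chains, which start fibrils and limit their width, were Col5a1 at 0.21 and Col5a2 at -0.10. Col5a1 had the largest difference of the 5 and read 11.36 and 11.38 in control skin versus 11.46 and 11.70 in Ovol2 BT skin, with an SE of 0.15.

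The fibril-associated and beaded-filament collagens had differences between -0.09 and 0.16. Col12a1, which sits on the surface of fibrils, differed by -0.02 (SE 0.11). Col14a1, its relative, read 11.97 and 11.60 in control skin versus 11.79 and 12.09 in Ovol2 BT skin, so the groups overlapped and the controls alone were 0.37 apart. The chains of type VI collagen, which form beaded filaments around cells, differed by -0.02 (Col6a1), 0.06 (Col6a2) and -0.09 (Col6a3). All 3 were below the controls on Ovol2 BT replicate 1. Col6a3, with 12.79 and 12.77 in control skin versus 12.61 and 12.77 in Ovol2 BT skin, was the only gene of the 39 with both Ovol2 BT arrays below both controls, on replicate 2 only just. The 3 chains moved in step between the Ovol2 BT arrays, with replicate 2 above replicate 1 by 0.29, 0.27 and 0.16.

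Among the adhesive and matricellular glycoproteins, differences ran from -0.37 to 0.40, and those of Fn1 and Sparc had the smallest errors. Fibronectin, which Fn1 encodes, is the scaffold on which cells lay down collagen; it read 13.22 and 13.21 in control skin versus 13.34 and 13.36 in Ovol2 BT skin, a difference of 0.13 (interval -0.02 to 0.29, adjusted p = 0.906). Both Ovol2 BT arrays were above both controls, and this gene had the smallest unadjusted p of the 39 in limma's test (0.0752). Sparc, a collagen-binding protein of fetal matrix, read 13.86 and 13.84 against 13.93 and 13.87, and differed by 0.05 (SE 0.05). Tnc, the tenascin of remodelling matrix, differed by -0.08, with 10.88 and 10.75 in control skin versus 10.46 and 11.01 in Ovol2 BT skin. Its Ovol2 BT arrays lay on either side of the controls, so the promoter letters printed for Tnc stand beside no difference between genotypes that passed the test.

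Tnxb and Postn marked the ends of the range, and in each the difference lay mostly on Ovol2 BT replicate 2. Tnxb, a tenascin that spaces collagen fibrils, read 10.29 and 9.72 in control skin versus 10.05 and 10.76 in Ovol2 BT skin, a difference of 0.40 (SE 0.33, adjusted p = 0.906). Only Ovol2 BT replicate 2 was above both controls. Postn, which encodes periostin, a matrix protein that helps collagen crosslinking, read 12.94 and 12.94 in control skin versus 13.03 and 12.11 in Ovol2 BT skin, a difference of -0.37 (SE 0.29, limma's adjusted p = 0.906). Replicate 1 was above both controls and replicate 2 below them. Without Ovol2 BT replicate 2 the difference of Tnxb was 0.04 and that of Postn 0.09.

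Proteoglycans split into those that were even and those that followed 1 array. Bgn (biglycan) differed by 0.08 (SE 0.07), with 13.04 and 13.07 against 13.11 and 13.16. Dcn (decorin), which binds and spaces collagen fibrils, differed by -0.10 (SE 0.12), with 13.63 and 13.58 against 13.69 and 13.33. Lum (lumican), another fibril-spacing proteoglycan, read 12.54 and 12.40 in control skin versus 12.63 and 11.83 in Ovol2 BT skin. Vcan, the large hyaluronan-binding proteoglycan versican, read 12.10 and 12.01 against 12.19 and 11.42. For Dcn, Lum and Vcan, Ovol2 BT replicate 1 was the highest of the 4 arrays and replicate 2 the lowest. Fmod (fibromodulin) went the other way on replicate 2, with 9.11 and 9.63 in control skin versus 9.41 and 9.93 in Ovol2 BT skin, a difference of 0.29 (SE 0.29).

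Elastic fibre genes had small positive differences in 5 of 5 measured members, with a median of 0.14 and none called. Eln, the elastic core protein elastin, read 11.28 and 11.39 in control skin versus 11.52 and 11.44 in Ovol2 BT skin (difference 0.14, SE 0.14). Fbn2, the microfibril protein of fetal tissue, differed by 0.01 (SE 0.12), and Fbln1 by 0.03 (SE 0.10). Fbln2 and Fbln5, fibulins that link elastin to microfibrils and cells, differed by 0.28 (SE 0.17) and 0.17 (SE 0.16). Fbln2 read 11.29 and 11.24 against 11.37 and 11.72, so most of its difference lay on replicate 2. The crosslinking enzymes went apart: Loxl1, which acts on elastin, read 11.39 and 11.14 against 11.49 and 11.80 (0.37, SE 0.18, adjusted p = 0.906), while Lox, which acts on collagen and elastin, read 12.05 and 12.38 against 12.44 and 11.41 (-0.29, SE 0.34). Both Ovol2 BT arrays were above both controls for Loxl1; for Lox they lay on either side of them.

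**Figure D2:**
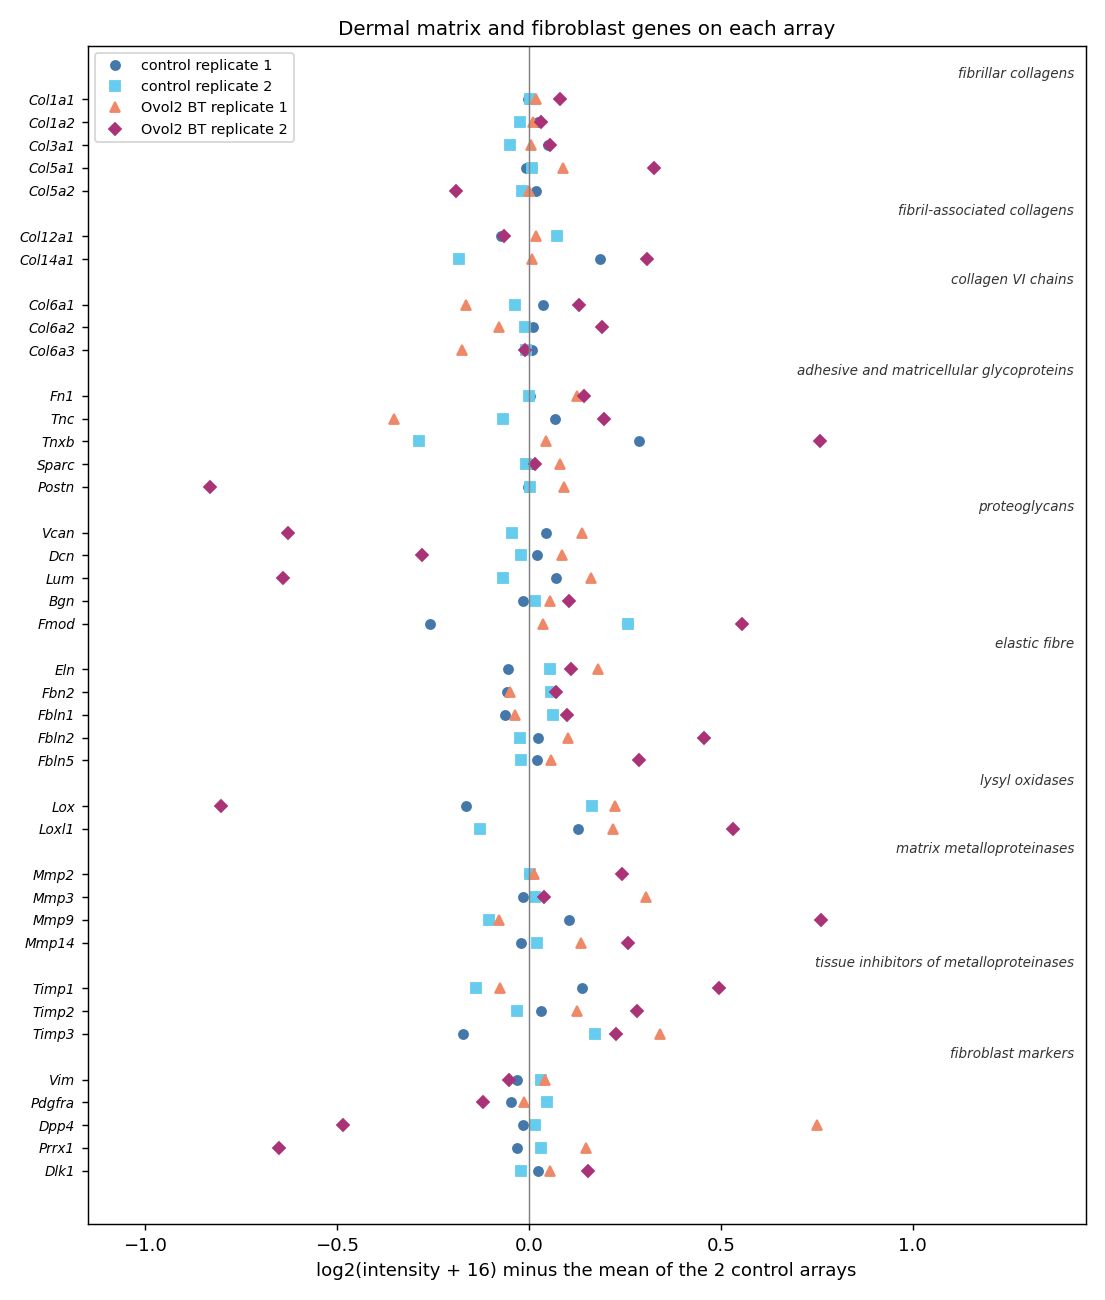
Each row is a gene, grouped by role, and each symbol an array; the horizontal axis is log2(intensity + 16) minus the mean of the 2 control arrays. Ovol2 BT replicate 2 (diamonds) lies farthest from the control mean for most genes with a wide spread, to the left for Postn, Lox, Vcan, Lum and Prrx1 and to the right for Tnxb, Mmp9 and Fmod, while the type I collagen chains sit close to 0 on all arrays.

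All 4 metalloproteinases and all 3 inhibitors had positive differences, as did 8140 of the 14953 genes tested, and none of these 2 roles was called. Mmp2 and Mmp14, a gelatinase and the membrane enzyme that activates it, differed by 0.13 (SE 0.11) and 0.20 (SE 0.13). Mmp14 read 11.52 and 11.56 in control skin versus 11.68 and 11.80 in Ovol2 BT skin, both above both controls. Mmp3 and Mmp9 were dim, at mean levels of 7.54 and 7.49 close to the filter. Mmp9, the gelatinase of invading and myeloid cells, read 7.42 and 7.22 against 7.24 and 8.08, a difference of 0.34 (SE 0.29) that was -0.08 without Ovol2 BT replicate 2.

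The inhibitors Timp1, Timp2 and Timp3, which bind and block metalloproteinases, differed by 0.21 (SE 0.26), 0.20 (SE 0.12) and 0.28 (SE 0.16). Timp3 read 11.37 and 11.71 in control skin versus 11.88 and 11.77 in Ovol2 BT skin; the controls alone were 0.35 apart. Timp2 read 11.98 and 11.92 against 12.07 and 12.23, with both Ovol2 BT arrays above both controls.

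Fibroblast markers were level on average, with a median difference of -0.01 over 5 genes. Vim (vimentin), the intermediate filament of mesenchymal cells, read 13.74 and 13.80 in control skin versus 13.81 and 13.72 in Ovol2 BT skin (interval of the difference -0.15 to 0.14). Pdgfra, the receptor that marks dermal fibroblasts, differed by -0.07 (SE 0.13), with 11.68 and 11.77 against 11.71 and 11.60. Dlk1, a marker of the lower dermis, differed by 0.10 (SE 0.06), with 13.52 and 13.47 against 13.55 and 13.65. Prrx1, a homeobox factor of mesenchyme, read 11.96 and 12.02 against 12.14 and 11.34, a difference of -0.25 (SE 0.27).

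Dpp4, a marker of upper dermal fibroblasts, had the widest gap between arrays of 1 genotype. It read 10.32 and 10.35 in control skin versus 11.09 and 9.85 in Ovol2 BT skin. The mean difference was 0.13 (SE 0.41), but replicate 1 was at 0.75 and replicate 2 at -0.49 relative to the control mean. Its Ovol2 BT arrays thus lay on opposite sides of the control mean, as those of 16 of the 39 genes did. The share of all genes tested with this order was not counted.

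The Ovol2 BT arrays differed from each other by more than the control arrays did. The 2 control arrays differed by a median of 0.06 without sign over the 39 genes, and the 2 Ovol2 BT arrays by 0.23; over all genes tested these medians were 0.13 and 0.28. No gene of the 39 differed by more than 1.5-fold between the control arrays, where 3.06% of all genes did. Between the Ovol2 BT arrays 8 of 39 did (20.5%), close to the 18.2% of all genes. The 1.5-fold limit was set after the values were seen. Replicate 2 was lower than replicate 1 by that much for Dpp4 (-1.24), Lox (-1.03), Postn (-0.92), Lum (-0.80), Prrx1 (-0.80) and Vcan (-0.76), and higher for Mmp9 (0.84) and Tnxb (0.71). Lower values on replicate 2 also prevailed over all genes tested, with 1974 lower and 745 higher by that much.

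Of the alternatives run, calls for these genes appeared only when Ovol2 BT replicate 1 was left out, a fit that assumes the lone Ovol2 BT array to vary as the controls do. In that limma fit 9 of the 39 genes were called (23.1%), where 16.4% of all genes were. Lower were Postn (-0.83, adjusted p = 4.81e-04), Lox (-0.80), Prrx1 (-0.65), Lum (-0.64), Vcan (-0.63) and Dcn (-0.28), and higher were Mmp9 (0.76), Loxl1 (0.53) and Fbln2 (0.46). Without Ovol2 BT replicate 2 in its place, 0 of 39 were called, where 0.716% of all genes were, and the 6 lower genes had differences between 0.09 (Postn and Dcn) and 0.23 (Lox).

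**Figure D3:**
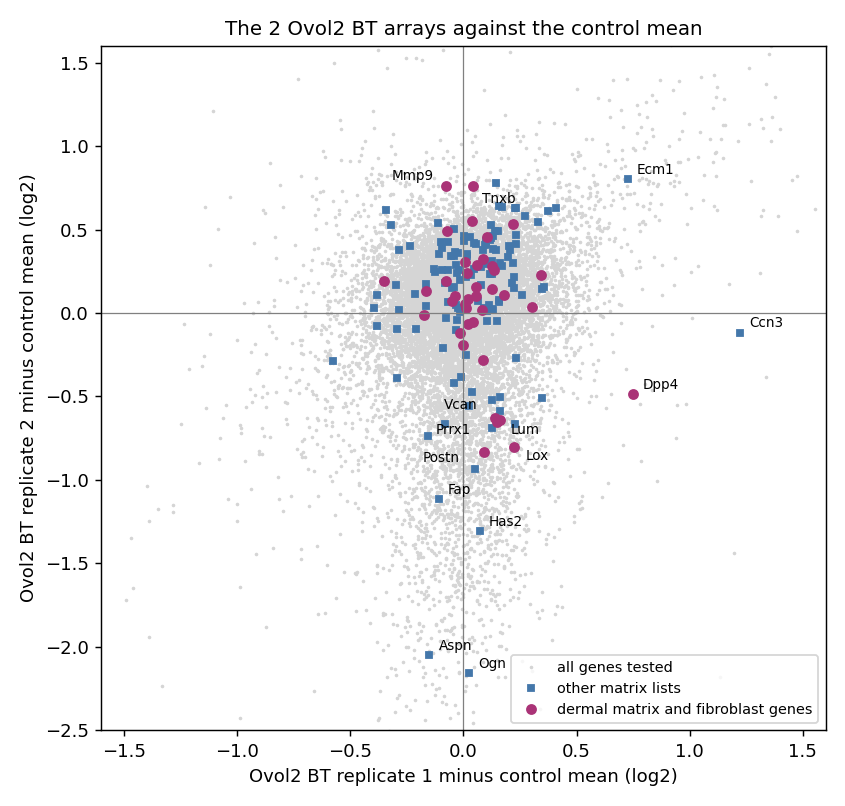
Each point is a gene, placed by its level on Ovol2 BT replicate 1 (horizontal axis) and replicate 2 (vertical axis), each minus the control mean in log2 units; purple circles are the 39 dermal genes, blue squares the other matrix lists, grey dots all genes tested, of which some lie outside the axes. The dermal genes scatter more along the vertical axis, with Postn at -0.83 and Mmp9 at 0.76, and Dpp4 is the one far to the right, at 0.75.

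In the values as deposited, the groups that did not overlap showed a lean toward small positive differences. Both Ovol2 BT arrays were above both control arrays for 15 of 39 genes (38.5%), where 20.1% of all genes tested had this order. They were Col1a1, Col5a1, Fn1, Sparc, Bgn, Eln, Fbln2, Fbln5, Loxl1, Mmp2, Mmp3, Mmp14, Timp2, Timp3 and Dlk1. The reverse order held for 1 gene, Col6a3 (2.56%), where 14.1% of all genes had it. The differences of these 15 genes lay between 0.05 (Sparc) and 0.37 (Loxl1), and none was called. Some of these orders rested on narrow gaps. The lower Ovol2 BT array and the higher control read 13.87 and 13.86 for Sparc, 12.35 and 12.34 for Mmp2, and 13.52 and 13.50 for Col1a1. The order was counted under the main setting only, so a small shift between arrays could change the count.

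Genes that make, anchor or bind this matrix but are not among the 41 were read from 8 lists, with 127 genes tested. None of the 127 was called, where 0.0268% of all genes tested were. In limma, 9 had an unadjusted p under 0.05 (8 higher, 1 lower), against 4.23% of all genes tested (372 higher, 260 lower). The median difference of the 127 was 0.12, and that of all genes tested was 0.03. Of 20 genes of collagen folding and processing, the largest differences were those of P4ha2, a subunit of prolyl hydroxylase (0.49, SE 0.18), and Serpinh1, the collagen chaperone (0.26, SE 0.13). The other skin collagens (12 genes, median 0.13) had Col8a1 at -0.44 (SE 0.39) and Col5a3 at 0.25 (SE 0.22) as the largest. Among 13 other elastic fibre genes, 11 had positive differences, with Emilin1 at 0.43 (SE 0.22) and Emilin2 at 0.32 (SE 0.20).

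The smallest p among these other genes was that of Ecm1, an extracellular matrix protein that epidermis makes too. It read 11.17 and 11.25 in control skin versus 11.94 and 12.01 in Ovol2 BT skin, a difference of 0.76 (SE 0.13, adjusted p = 0.433), with both Ovol2 BT arrays above both controls. It was the only gene of the 127 called in limma with either Ovol2 BT array left out: the difference was 0.80 without replicate 1 (adjusted p = 0.00290) and 0.73 without replicate 2 (adjusted p = 0.0459). Ccn3, the matricellular protein also named Nov, came next in its list at 0.55 (SE 0.43), and read 12.11 on Ovol2 BT replicate 1 alone against 10.77 to 10.98 on the other 3 arrays.

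Other proteoglycans held the widest array gaps of the 127. Ogn (osteoglycin) read 10.67 and 10.79 in control skin versus 10.76 and 8.57 in Ovol2 BT skin, and Aspn (asporin) read 11.71 and 11.93 against 11.67 and 9.77. Both encode small leucine-rich proteoglycans, as Dcn and Lum do, and both were low on Ovol2 BT replicate 2 alone. Their differences between genotypes were -1.07 (SE 0.68) and -1.10 (SE 0.60). Low levels on that array were not shared by all proteoglycans. Relative to the control mean, Prelp was there at 0.63, Podn at 0.40, Fmod at 0.55 and Bgn at 0.10. Has2, the main hyaluronan synthase of embryos, read 10.06 and 9.79 against 9.99 and 8.62, low on the same array. In all, 18 of the 127 genes differed by more than 1.5-fold between the Ovol2 BT arrays, 6 higher and 12 lower on replicate 2. Of all genes tested 18.2% did, 745 higher and 1974 lower.

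Proteases, receptors and lineage markers completed the lists. Of 13 other proteases and inhibitors, Fap, a fibroblast surface protease, had -0.61 (SE 0.37) and Plat 0.27 (SE 0.21). Of 14 matrix receptors, the collagen-binding integrin chains Itga11 and Itga1 differed by 0.52 (SE 0.20) and -0.45 (SE 0.29), and 8 of 14 were positive. Of 20 other fibroblast and dermal lineage markers 18 were positive, with a median of 0.18, and Osr1 (0.44, SE 0.13) and Hic1 (0.40, SE 0.23) had the largest differences. None of these passed the test over all genes. Chosen after their values were seen, the lower gene at an unadjusted p under 0.05 was the hyaluronan receptor Cd44 (-0.34, SE 0.11), and the higher ones also included Pcolce (0.23), Crabp1 (0.26), Mfap2 (0.18) and Mfap4 (0.23).

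Markers of other cell types moved with some of these arrays. The keratinocyte list had negative differences for 10 of 11 genes (median -0.14), and its summed intensity was 89873 and 92424 in control skin versus 74661 and 72947 in Ovol2 BT skin. Krt5 (-0.87, adjusted p = 0.0597), Krt14 (-0.66) and Krt15 (-1.41) had the largest differences of this list and were not called in limma. The other keratinocyte genes ran from -0.21 (Trp63) to 0.07 (Cdh1), with the keratins Krt1 and Krt10 at -0.08 each. The macrophage and myeloid list had 12 of 15 positive differences (median 0.40), with summed intensities of 17330 and 14871 against 19441 and 21188. The part of these shifts in the lean of the dermal genes was not tested.

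Between the Ovol2 BT arrays, muscle and blood markers differed most. The skeletal muscle list summed to 95190 and 59482 in control skin versus 59224 and 100078 in Ovol2 BT skin, and 18 of its 22 genes were over 1.5-fold higher on Ovol2 BT replicate 2 than on replicate 1. The erythroid list, with 5 of 9 measured genes above the filter, summed to 3532 and 6960 against 4140 and 15148. Skeletal muscle signal was thus high on control replicate 1 as well as on Ovol2 BT replicate 2. The gap between the Ovol2 BT arrays had a Spearman rho with the span of the gene on the genome of -0.23 over 14908 genes and of -0.00324 over the 39 dermal genes, as a description over genes that share the same 2 arrays. The part of muscle, blood or gene length in the gap of the dermal genes was not tested.

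**Figure D4:**
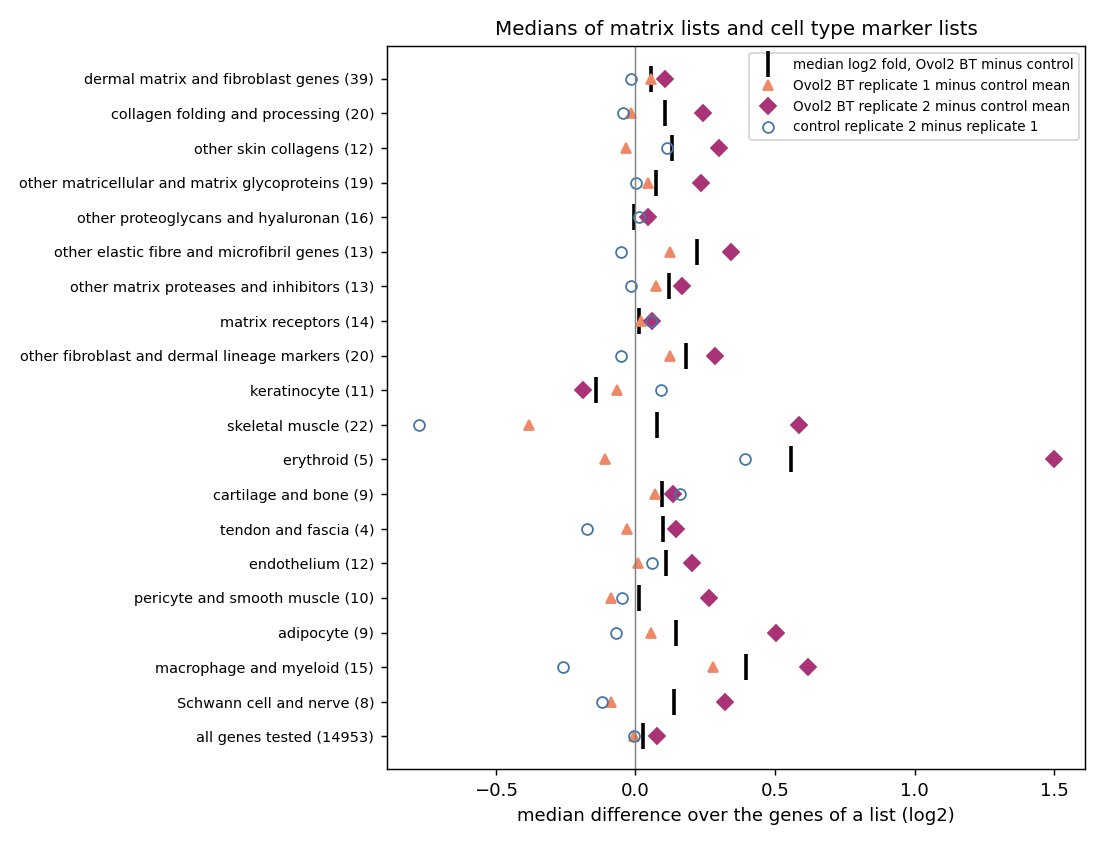
Each row is a gene list with its number of genes tested; the black bar is the median difference between genotypes, triangles and diamonds the medians of each Ovol2 BT array minus the control mean, and open circles the median of control replicate 2 minus replicate 1 (horizontal axis, log2). The dermal list lies at 0.06, close to the 0.03 of all genes tested, while the muscle and erythroid lists differ widely between the Ovol2 BT arrays.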

How the data were processed

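Each array gave intensity values, 1 per probe set, which the authors deposited on a linear scale after summarising with Affymetrix Expression Console 1.1.1 and PLIER 2.0, per the submitters' processing notes. Any scaling between arrays was not given in the sources used here, nor was the build behind the probe sets. Of 35557 probe sets, 21789 had 1 symbol, 1621 several and 12147 no listed gene. Of those with 1 symbol, 21698 had an Entrez number in the RefSeq table of GRCm38.p6 and took their symbol from it. Values were taken to log2(intensity + 16), which shrinks differences of dim genes. The brightest probe set stood for a gene, and genes under the 25th percentile of mean level were left out. limma 3.58.1 in R 4.3.3 compared the genotypes on all 4 arrays (lmFit, then eBayes allowing an intensity trend; two-sided, 2 residual and 3.45 prior degrees of freedom), with Benjamini-Hochberg adjustment over 14953 genes. With 2 against 2, the smallest p of an exact permutation test is 0.333, so none was run. Precision is limited by the number of arrays. The fit was also run on simulated data in which all arrays of a gene varied alike. Those data held no array that stood apart, as Ovol2 BT replicate 2 did.

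The members and lists were chosen with earlier results of these data known, so no list was tested as a set. The rule for named genes took members at an unadjusted p under 0.05, the 3 largest differences each way, the 2 brightest members, the largest of each role, and the called genes or else the 2 largest of each other list. Other members named, and other genes said to be so, were chosen after their values were seen. Alternatives were 16 fixed settings of scaling, offset, filter, probe sets, variance model, array weights, pairing, gene length and left-out arrays, and 1 added after seeing the data.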

Additional observations from a re-analysis of the deposited data

How the results depend on the processing

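No dermal gene was called under the 12 fixed settings that kept all 4 arrays, and 652 single-gene values kept their side of the threshold; the other 9 were the calls without Ovol2 BT replicate 1. Leaving out 1 array at a time gave 4 to 2453 genes called, 0 to 9 dermal genes, 0 to 23 other matrix genes and a dermal median between 0.0545 and 0.105. Medians by role then ranged from -0.00245 to 0.0540 (fibrillar collagens), 0.0402 to 0.14 (glycoproteins), 0.0578 to 0.15 (elastic fibre), 0.0751 to 0.25 (metalloproteinases), 0.12 to 0.28 (inhibitors) -0.12 to 0.0547 (fibroblast markers) and 0.0123 to 0.122 (fibril-associated collagens). The widest ranges, each with a change of sign, were those of proteoglycans (-0.280 without Ovol2 BT replicate 1, 0.0851 without replicate 2), collagen VI chains (0.130 and -0.164) and lysyl oxidases (-0.136 and 0.222). Median centring gave 7 genes called, a dermal median of 0.12 and medians of 0.0934 (fibrillar collagens), 0.11 (glycoproteins) and 0.21 (elastic fibre), by its own shift of the arrays. With the length trend removed there were 9 genes, a dermal median of 0.10 and medians of 0.0867 (fibrillar collagens), 0.17 (fibril-associated collagens), 0.0869 (glycoproteins), 0.23 (elastic fibre) and 0.29 (inhibitors); the cause was not tested. Cyclic loess and a variance without trend each called 0 genes in limma, and 0 dermal genes then had an unadjusted p under 0.05; that count was 1 with the length trend removed and 1 with crossed replicate numbers. The replicate number as a block called 9 genes and 0 dermal genes. Same-numbered deviations correlated at -0.172 over genes, so the numbers were also crossed, which called 5 genes and 0 dermal genes. Same-numbered samples share the replicate number and the presence or absence of Y-linked signal, so the block by replicate number separated both. With 2 arrays per group, differences under the widths of the intervals were not detectable. Larger ones could also go uncalled, as the largest unadjusted p called in limma's test was 6.78e-06. Ecm1, with a difference of 0.76 (95% interval 0.44 to 1.09), was not called.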
